A study of Mus musculus with 6 samples.

Results

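The genes described here make, move and sense the inhibitory transmitters GABA and glycine in the retina of rd10 mice. They are 26 named symbols, chosen by name from the 32285 genes counted, and all 26 were found in the count files. Their UMIs (unique molecular identifiers, 1 per captured RNA molecule) were summed per library over nuclei of 11 marker-defined types. The first question was which type holds which gene, and the second whether the genes differed between retinas injected with IL-27 and with saline.

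All libraries came from B6.CXB1-Pde6b-rd10/J mice, which carry the rd10 mutation of the rod phosphodiesterase gene Pde6b and lose first rods and then cones. Each retina received 1 intravitreal injection at P18 and was frozen at P20 for isolation of nuclei. The 3 saline libraries are replicates 1, 2 and 6, and the 3 libraries that received 20 ng of recombinant IL-27 are replicates 4, 5 and 10. Both groups thus share the mutation and an injection, and no wild-type retina was compared here. The labels do not say whether each library came from a separate animal, so p-values measure the spread between these libraries.

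GABA is made from glutamate by glutamate decarboxylases, loaded into vesicles together with glycine by a shared vesicular transporter, and cleared by plasma membrane transporters on neurons and glia. Horizontal cells act on photoreceptor terminals, and amacrine cells, which use either GABA or glycine, act on bipolar, ganglion and other amacrine cells. GABA-A receptors and glycine receptors are chloride channels assembled from several subunits, receptors of rho subunits are the slowly desensitizing form long known from bipolar cells, and GABA-B receptors signal through G proteins. GABA-A subunits outside the list were not analysed here.

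The promoters of 3 receptor genes with high levels in all 3 bipolar types are shown, those of Gabrr1 and Gabrr2, which are neighbours on chromosome 4, and that of Gabra5, which was also high in cones. Each sequence is the 300 bases from 250 before to 50 after a start listed for the gene in RefSeq on GRCm38.p6. Each is read 5′ to 3′ on the gene's strand. Gabrr1 is at chr4:33132306-33132605 on the plus strand, Gabrr2 at chr4:33062862-33063161 on the plus strand and Gabra5 at chr7:57510010-57510309 on the minus strand. Gabrr2 spans chr4:33057712-33095865 and Gabra5 chr7:57407669-57591016 in RefSeq, so their windows lie inside the gene, not at its outer end. Capitals mark matches to TAATCC (reverse GGATTA), the core bound by the photoreceptor and bipolar homeodomain factors Crx and Otx2, or to CAGATG (reverse CATCTG), an E-box of basic helix-loop-helix factors, searched on both strands after the map of levels was known.
Gabrr1: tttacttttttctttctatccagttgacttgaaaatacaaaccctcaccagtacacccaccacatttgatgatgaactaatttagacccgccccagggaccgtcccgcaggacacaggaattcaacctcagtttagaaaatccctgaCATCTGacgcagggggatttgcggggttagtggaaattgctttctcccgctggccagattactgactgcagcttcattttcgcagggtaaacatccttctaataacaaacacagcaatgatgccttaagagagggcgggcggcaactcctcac
Gabrr2: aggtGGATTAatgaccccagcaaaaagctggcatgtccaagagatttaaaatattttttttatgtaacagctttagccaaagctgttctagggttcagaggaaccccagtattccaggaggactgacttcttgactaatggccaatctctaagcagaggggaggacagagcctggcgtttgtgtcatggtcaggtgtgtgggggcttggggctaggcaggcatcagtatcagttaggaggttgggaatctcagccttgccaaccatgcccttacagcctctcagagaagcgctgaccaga
Gabra5: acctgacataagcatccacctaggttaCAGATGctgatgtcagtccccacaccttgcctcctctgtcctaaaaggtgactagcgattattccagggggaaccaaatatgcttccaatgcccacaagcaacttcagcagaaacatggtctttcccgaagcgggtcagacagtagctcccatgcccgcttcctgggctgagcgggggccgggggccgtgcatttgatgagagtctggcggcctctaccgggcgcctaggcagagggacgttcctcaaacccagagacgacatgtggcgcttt
Gabrr2 held 1 TAATCC match, Gabrr1 and Gabra5 held 1 CAGATG match each, and no matches overlapped. Of 32851 RefSeq promoters of this length, 7.06% held TAATCC and 17.2% held CAGATG. Among the 23 members with a promoter in the table, 4 held TAATCC (Gabra2, Gabrr2, Gad1 and Slc6a5) and 5 held CAGATG (Gabra5, Gabrr1, Gad2, Slc6a5 and Slc6a9). A match describes these letters only.

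The 6 libraries held 8968 to 9965 barcodes and 36678332 to 48260748 UMIs, and 52229 nuclei were kept. Any pair of libraries shared 18 to 30 barcodes. The types were rods (15612 nuclei), cones (3331), rod bipolar (3168), ON cone bipolar (3679), OFF cone bipolar (2756), horizontal (494, 53 to 109 per library), amacrine (12591), ganglion (2197), Muller glia (5442), astrocytes (292, 34 to 67 per library) and microglia (1495). The members were left out of clustering and of the marker lists, but clusters rest on other genes of the same nuclei, so levels across types are described without a test. Levels are CPM, the UMIs of a gene scaled to 1000000 UMIs summed over a type in a library, and ± is the SD over 6 libraries. In such sums, fewer nuclei with a transcript and less RNA per nucleus cannot be told apart.

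The types were checked against their marker lists. In each type its own list was detected in all 6 libraries, for example 10321 to 15263 CPM over 8 cone markers in cones and 3295 to 3679 CPM over 8 microglial markers in microglia. Lists share genes, and some were high outside their type. The 8 amacrine markers, with Pax6, Meis2 and Elavl3 among them, summed to 5376 to 5871 CPM in amacrine, 6351 to 7626 CPM in horizontal and 8150 to 9626 CPM in ganglion nuclei, and the 9 Muller markers, with Apoe among them, summed to 5919 to 7061 CPM in Muller glia and 3752 to 5513 CPM in microglia. Muller markers also reached 1556 to 2007 CPM in rods, and amacrine markers 616 to 725 CPM.

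The map of levels was sharp for most members. In 20 of 26 members the type with the highest level lay above the next type in all 6 libraries, against 36.6% of the 14676 genes that reached 10 CPM in a type. Amacrine nuclei were the highest type for 13 of the 26 members (50%), and for 4.84% of those genes. The exceptions, whose 2 highest types overlapped, were Gabra5, Gabrg1, Gabrg3, Gabrr3, Gabbr2 and Abat. Rods, ganglion nuclei and microglia were the highest type for none of the members.

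**Figure D1:**
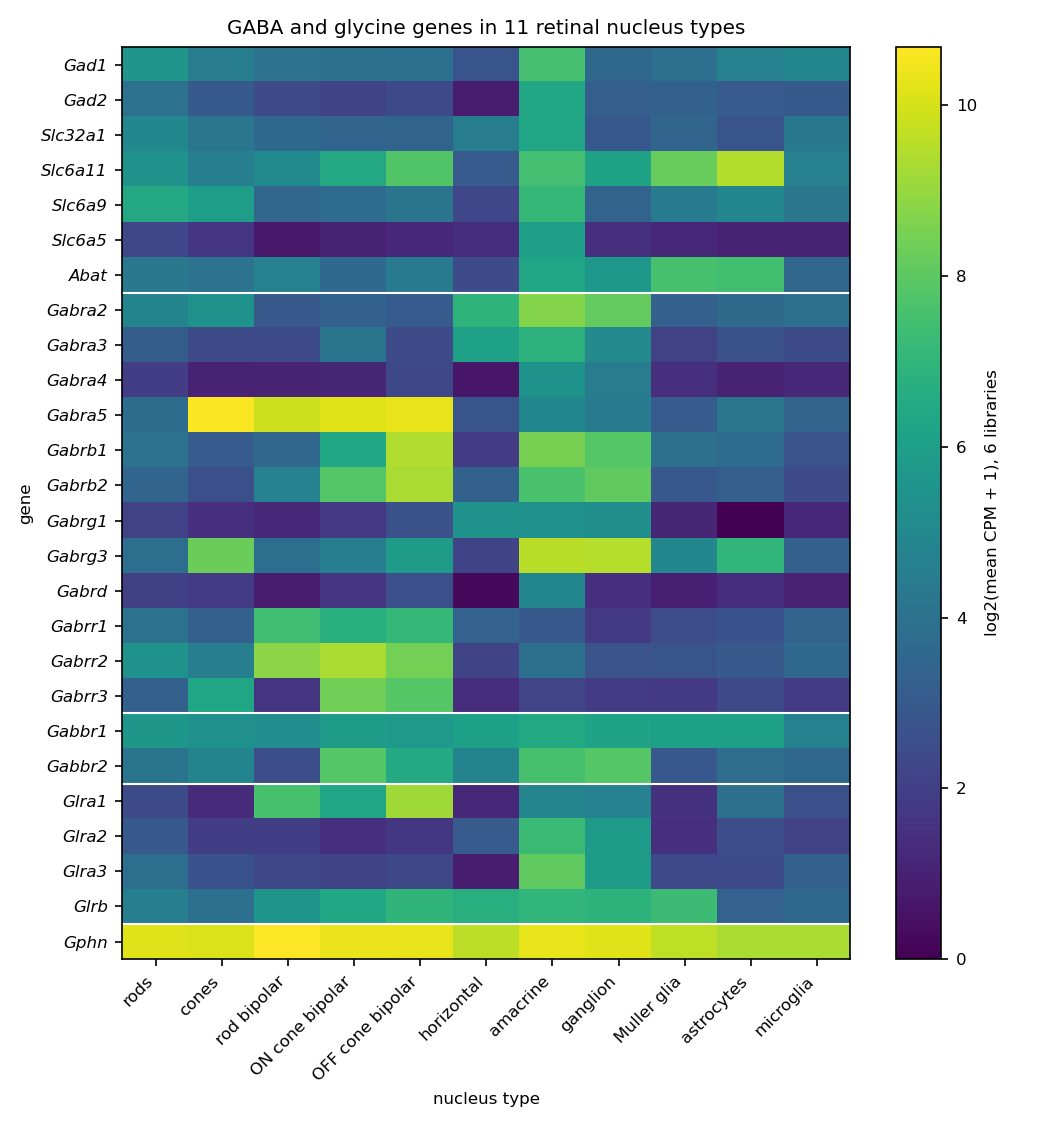
Levels of the 26 genes (vertical axis, grouped by role) in the 11 nucleus types (horizontal axis), as log2 of the mean CPM of 6 libraries plus 1. Synthesis and glycine transporter genes are brightest in amacrine nuclei, rho subunits in bipolar nuclei, Gabra5 in cones and bipolar nuclei, and Slc6a11 in astrocytes and Muller glia, while Gphn is bright in every type.

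Synthesis genes were highest in amacrine nuclei. Gad1, which encodes the larger glutamate decarboxylase, was at 189, 189 and 199 CPM with saline and 185, 180.00 and 161 CPM with IL-27. Its mean there was 184 ± 13 CPM, against 46 ± 15.2 CPM in rods, the next type, and the groups of libraries did not overlap. Gad2, the smaller form found at terminals, had 81.5 ± 9.42 CPM in amacrine nuclei and 14.9 ± 4.66 CPM in rods.

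Microglia, which should lack both enzymes, had Gad1 at 28.9 CPM, and horizontal nuclei had 5.87 CPM. After thinning each nucleus to 1000 UMIs, 14.5% of amacrine nuclei held a Gad1 UMI, 4.07% of rods (95% exact interval 3.7 to 4.46, 3849 shallower rods left out) and 2.09% of microglia (1.41 to 2.99). The unthinned shares were 45.5%, 5.73% and 5.81% at median depths of 5531, 1248 and 2093 UMIs. The thinned share in horizontal nuclei was 0.84% (0.23 to 2.13).

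Slc32a1 encodes the vesicular transporter that loads both GABA and glycine. In amacrine nuclei it was at 67, 71.5 and 79.9 CPM with saline and 67.2, 65.7 and 106 CPM with IL-27, highest in IL-27 replicate 10, and at 31.2 ± 6.66 CPM in rods. Horizontal nuclei had 21.1 ± 7.47 CPM and microglia 19.2 ± 7.31 CPM, where Gad1, Gad2 (0.798 against 7.09 CPM) and Slc6a9 (3.81 against 17.9 CPM) were all lower in horizontal nuclei. The count of Slc32a1 over that of Gad1 was 3.77 in horizontal nuclei (98 over 26 UMIs) and 0.693 in microglia, and every horizontal library (2 to 7.5) lay above every microglial library (0.312 to 1.2). A Slc32a1 UMI was found in 18.6% of horizontal nuclei and 4.18% of microglia at median depths of 10036.5 and 2093 UMIs, and after thinning in 1.26% (0.46 to 2.71) and 2.82% (2.01 to 3.83).

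Glycine transporters were highest in amacrine nuclei too, with Slc6a9 also in photoreceptors. Slc6a9 encodes GlyT1, the glycine uptake carrier of glycinergic amacrine cells in the retina, and had 139 ± 12.1 CPM in amacrine nuclei. Rods had 90.9, 80.6 and 86.7 CPM with saline and 88.8, 75.5 and 97.4 CPM with IL-27, and cones had 60.02 ± 13.8 CPM, whereas rod bipolar nuclei had 10.6 and horizontal nuclei 3.81 CPM. Every rod and cone library lay above every bipolar, horizontal and ganglion library.

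The photoreceptor level of Slc6a9 kept its place after thinning. A Slc6a9 UMI was found in 8.26% of rods (7.74 to 8.8), 5.98% of cones (5.17 to 6.86) and 1.88% of microglia (1.23 to 2.74). The count of Slc6a9 over that of Gad1 was 1.91 in rods (1.3 to 3.27 by library) and 2.7 in cones (1.98 to 3.67), but 0.659 in microglia, 0.719 in rod bipolar nuclei and 0.751 in amacrine nuclei. The same ratio was 1.5 in Muller glia (0.774 to 2.41), 1.14 in OFF cone bipolar nuclei (0.771 to 1.94) and 1.19 in astrocytes (0.5 to 5). The ranges of these types overlapped with that of rods. Slc6a5, which encodes GlyT2, the neuronal carrier that supplies glycine for vesicles, was nearly limited to amacrine nuclei, with 60.7 ± 4.33 CPM there and 3.89 ± 1.39 CPM in rods, the next type.

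GABA uptake and breakdown genes were highest in glia. Slc6a11, which encodes the GABA transporter GAT3, was at 739, 663 and 669.6 CPM with saline and 736, 668 and 756 CPM with IL-27 in astrocytes. Muller glia had 291 ± 23.8 CPM, OFF cone bipolar nuclei 218 ± 14 CPM and amacrine nuclei 177 ± 13.2 CPM, each type above the next in all libraries. Abat, the mitochondrial GABA transaminase that breaks GABA down, had 191 ± 25.8 CPM in Muller glia and 175 ± 25.7 CPM in astrocytes, which overlapped, and 80.01 ± 2.14 CPM in amacrine nuclei. Astrocytes rest on 276 summed nuclei.

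Gabra5 was the clearest photoreceptor and bipolar gene among the GABA-A subunits. It encodes the alpha 5 subunit, known in brain from receptors outside synapses, and cones had 1628, 1692 and 1619 CPM with saline and 1649, 1735 and 1100.2 CPM with IL-27, with IL-27 replicate 10 the lowest. Rod bipolar nuclei had 939 ± 146 CPM, ON cone bipolar nuclei 1147 ± 108 CPM and OFF cone bipolar nuclei 1276 ± 103 CPM, so these 4 types overlapped with their neighbours in the order. The next type, amacrine nuclei, had 30.6 ± 7.52 CPM, and rods had 12.8 ± 1.99 CPM. After thinning, a Gabra5 UMI was found in 69.3% of cones, 69.4% of OFF cone bipolar nuclei and 0.96% of rods. Rods and cones, both photoreceptors, thus lay far apart in Gabra5, with cones at the bipolar level.

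The other alpha subunits were genes of the inner retina. Gabra2 had 416 ± 25.2 CPM in amacrine, 275 ± 23.9 CPM in ganglion and 124 ± 24 CPM in horizontal nuclei, each above the next in all libraries. Gabra3 followed amacrine (115 CPM), horizontal (68.8 CPM) and ganglion nuclei (31.4 CPM). Gabra4 was at 44.1 ± 6.77 CPM in amacrine and 22 ± 5.3 CPM in ganglion nuclei and at 4.04 CPM or less elsewhere.

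Beta subunits, which every classical GABA-A receptor needs, were highest in OFF cone bipolar nuclei. Gabrb1 was at 685, 587 and 681 CPM with saline and 847, 703 and 539 CPM with IL-27 in these nuclei, with amacrine nuclei next at 358 ± 45 CPM. Gabrb2 had 648 ± 69.6 CPM in OFF cone bipolar nuclei and 270.4 ± 16.5 CPM in ganglion nuclei. Rod bipolar nuclei stood apart from the other bipolar types, with 10.6 CPM of Gabrb1 and 25.6 CPM of Gabrb2.

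Gamma and delta subunits shape where a GABA-A receptor sits and how it responds. Gabrg3 was at 765 ± 16.7 CPM in amacrine and 719 ± 74.7 CPM in ganglion nuclei, which overlapped, and cones held 309 ± 54.1 CPM where rods held 13.4 ± 2.17 CPM. Gabrg1 was split over horizontal (42.1 ± 11.9 CPM), amacrine (39.96 ± 2.2 CPM) and ganglion nuclei (39.2 ± 7.7 CPM), with overlap among the 3 and no other type above 5.23 CPM. Gabrd, the delta subunit of receptors outside synapses, had 28.5 ± 1.5 CPM in amacrine nuclei and 5.09 ± 1.83 CPM in the next type.

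The Gabrr genes encode subunits that form GABA-gated channels without alpha or beta subunits, and they were genes of bipolar nuclei. Gabrr1 was at 167, 175 and 188 CPM with saline and 150.1, 159 and 160.1 CPM with IL-27 in rod bipolar nuclei, above OFF (136 ± 10.5 CPM) and ON cone bipolar nuclei (106 ± 7.59 CPM). Gabrr2 was at 648, 668 and 663 CPM with saline and 588, 629 and 663 CPM with IL-27 in ON cone bipolar nuclei. Rod bipolar nuclei had 455 ± 17.3 CPM of Gabrr2, OFF cone bipolar nuclei 346 ± 17.5 CPM, and the 3 bipolar types did not overlap.

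Gabrr3 departed from the other rho subunits in rod bipolar nuclei. It was at 1.65, 2.5 and 2.08 CPM with saline and 3.04, 1.75 and 1.72 CPM with IL-27 in rod bipolar nuclei, from 27 UMIs in all. ON cone bipolar nuclei had 329 ± 40.3 CPM, OFF cone bipolar nuclei 235 ± 25.7 CPM and cones 78.8 ± 13.4 CPM. Every library of these 3 types lay above every rod bipolar library, and cones were the only other type above 9 CPM. Over the 11 types, Gabrr1 and Gabrr2 had the most alike pattern among the pairs of members compared (Pearson r = 0.95 of log2 CPM + 1, types from the same 6 libraries), as a description. Their levels differed, at 106 and 643 CPM in ON cone bipolar nuclei.

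**Figure D2:**
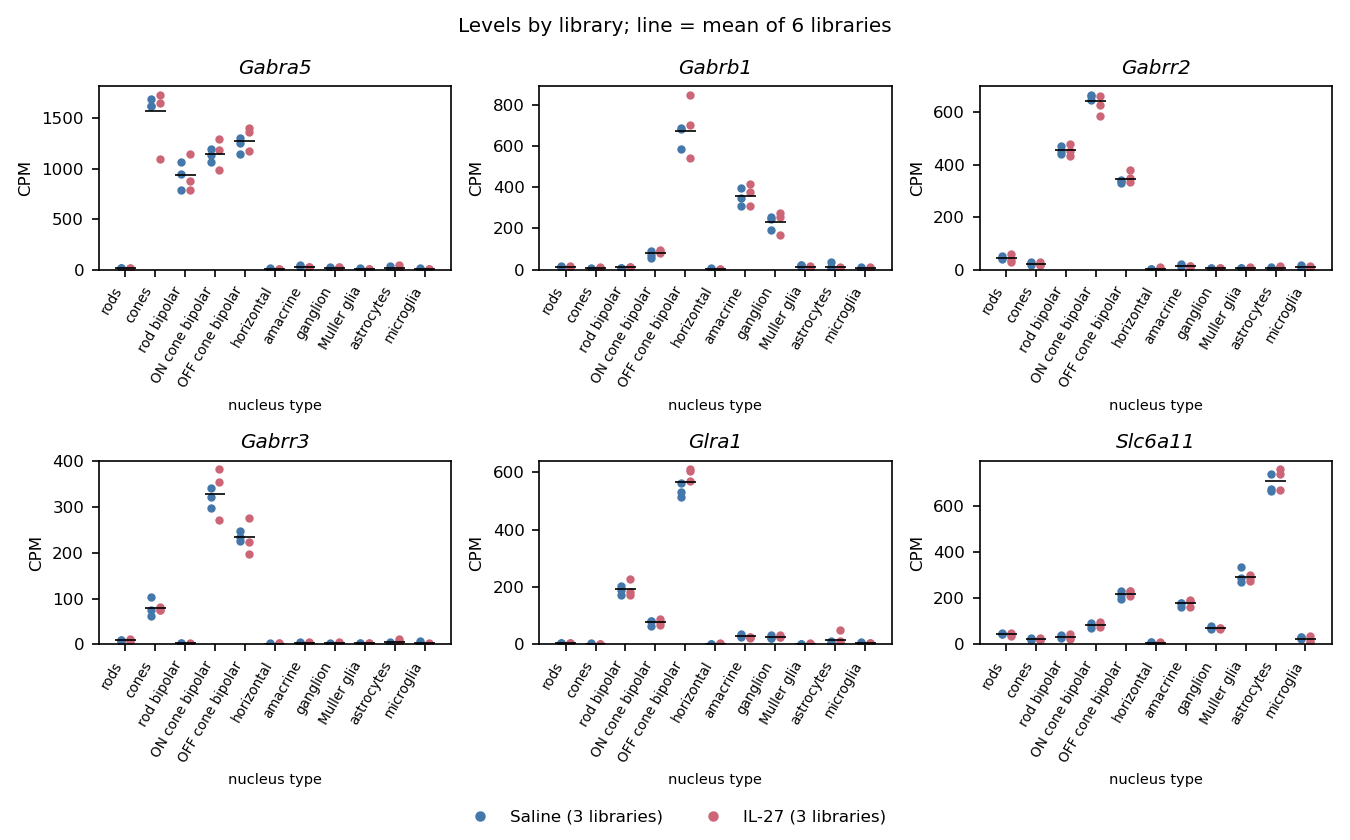
CPM (vertical axis, from 0) of Gabra5, Gabrb1, Gabrr2, Gabrr3, Glra1 and Slc6a11 in each library (points, blue saline and red IL-27) by nucleus type, with a line at the mean of 6 libraries. The separation between types is far wider than that between treatments: Gabrr3 is near 0 in rod bipolar nuclei and at 329 CPM in ON cone bipolar nuclei.

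GABA-B receptors need both of their subunits. Gabbr1, the GABA-binding subunit, varied little, from 24.8 ± 3.99 CPM in microglia to 88.4 ± 5.15 CPM in amacrine nuclei. Gabbr2, the G protein-coupling subunit, ranged from 4.92 ± 1.76 CPM in rod bipolar nuclei to 231 ± 12.7 CPM in ON cone bipolar and 229.8 ± 8.33 CPM in ganglion nuclei, which overlapped. The low level in rod bipolar nuclei was shared by all 6 libraries (2.86 to 7.09 CPM).

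Glycine receptor alpha subunits divided among the types. Glra1, the alpha 1 subunit of fast glycine receptors, was at 563, 533 and 515 CPM with saline and 603, 569 and 609.9 CPM with IL-27 in OFF cone bipolar nuclei. Rod bipolar nuclei followed at 192 ± 22.1 CPM and ON cone bipolar nuclei at 77.2 ± 9.05 CPM, with no overlap among the 3. Glra2 and Glra3 were instead highest in amacrine nuclei, at 156 ± 3.72 CPM and 267 ± 20.6 CPM, with ganglion nuclei next at 56 ± 6.67 CPM and 55 ± 9.46 CPM.

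The beta subunit and its scaffold were broader. Glrb, which joins the alpha subunits and ties the receptor to the scaffold, was highest in Muller glia at 143, 139 and 142 CPM with saline and 166, 224 and 145 CPM with IL-27, just above amacrine nuclei (123 to 134 CPM over the libraries) in each library. Glra1, Glra2 and Glra3 were at 1.92, 1.8 and 4.14 CPM in the same Muller glia. Gphn encodes gephyrin, the scaffold of inhibitory synapses that also works in molybdenum cofactor synthesis, and had 1643 ± 41.6 CPM in rod bipolar nuclei and 636 ± 91.5 CPM in microglia, the smallest ratio of highest to lowest type of any member.

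Counting nuclei in place of molecules left the map nearly as it was. With each nucleus thinned to 1000 UMIs, 24 of 26 members kept their highest type, and Gabra5 passed to OFF cone bipolar and Gabbr2 to ganglion nuclei, each already overlapping with its first type.

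Within the bipolar types, 17 clusters showed that Gabrr2 and Gabrr3 split the cone bipolar nuclei further. The clusters are numbered BC0 to BC16, and 3 of them (BC12, BC14 and BC16) met no bipolar marker rule and were left unnamed. BC2, an ON cone bipolar cluster of 800 nuclei led by Sox6 and Ptprt, had Gabrr2 at 1307, 1293 and 1284 CPM with saline and 1156, 1257 and 1269 CPM with IL-27 and Gabrr3 at 15.9 ± 5.75 CPM. BC7, an ON cone bipolar cluster of 525 nuclei led by Csmd1 and Ppp4r4, had Gabrr3 at 1323, 1175 and 1379 CPM with saline and 1207, 1426 and 1278 CPM with IL-27 and Gabrr2 at 34.5 ± 14.5 CPM. In every library the subunit that was high in one cluster was low in the other.

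Other clusters fell between or beside these extremes. BC6 resembled BC2 in both genes (Gabrr2 1204, Gabrr3 16.1 CPM), and BC8 and the OFF cluster BC11 resembled BC7 (Gabrr2 57.7 and 69.6, Gabrr3 552 and 724 CPM). BC3, BC5 and BC15 held both subunits, with Gabrr2 at 497, 428 and 369 CPM and Gabrr3 at 266, 464 and 240.04 CPM. The rod bipolar clusters BC0 and BC1 had Gabrr3 at 1.47 and 1.6 CPM. Gabra5, in contrast, was between 779.9 and 1688 CPM in all 17 clusters.

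**Figure D3:**
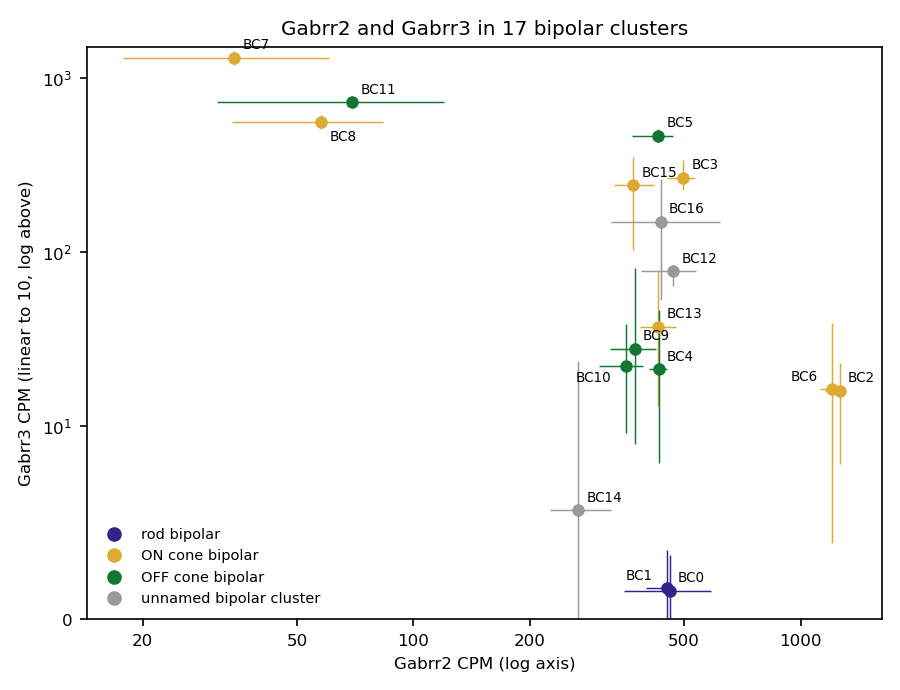
Gabrr2 CPM (horizontal log axis) against Gabrr3 CPM (vertical axis, linear to 10 and log above) in 17 bipolar clusters, colored by type, with the mean of 6 libraries as the point and the lowest and highest library as bars. BC2 and BC6 sit at high Gabrr2 and low Gabrr3, BC7, BC8 and BC11 at the opposite corner, and both rod bipolar clusters at the bottom.

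OFF cone bipolar clusters differed most in the beta subunits. BC9, led by Hs3st2 and Pcdh17, had Gabrb1 at 2743, 2299.8 and 2525 CPM with saline and 2579, 2604 and 2047 CPM with IL-27 and Gabrb2 at 1331 ± 99.4 CPM. BC4 and BC10 had 573 ± 55.2 CPM and 617 ± 128 CPM of Gabrb1, whereas BC5 and BC11 had 14.8 ± 6.08 CPM and 26.5 ± 21.6 CPM. Glra1 was high in every OFF cluster (389.7 to 746 CPM), and in ON clusters it ran from 8.83 ± 5.19 CPM in BC2 to 199 ± 18.7 CPM in BC7. Gabbr2 was at 3.44 and 3.72 CPM in both rod bipolar clusters, at 361 and 371 CPM in BC2 and BC7, and at 14.4 CPM in BC3, an ON cluster.

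A few bipolar clusters held genes that were otherwise amacrine or ganglion genes. Gabra3 was at 62.7, 133 and 81.7 CPM with saline and 82.3, 118 and 56.4 CPM with IL-27 in BC13, an ON cluster, and at 1.73 ± 2.07 CPM in BC2. Gabrr1 was lowest in the same BC13, at 42 ± 15.1 CPM, and highest in BC5, at 201 ± 35.1 CPM. The unnamed BC14 (288 nuclei) held Glra2 at 169.7 ± 58.3 CPM, where no named bipolar cluster was above 5.22 CPM, together with Gabrb1 at 1381 ± 186 CPM. Slc6a11 was highest in BC4, at 411 ± 16.4 CPM, and the glycine receptor beta subunit Glrb as well, at 239 ± 19.4 CPM, with the next cluster, BC13, at 95.2 ± 48 CPM.

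Amacrine nuclei fell into 35 clusters, which were grouped by the synthesis gene or transporter they held. The starburst-like cluster (751 nuclei) was named from its cholinergic markers, 18 clusters (5835 nuclei) had Gad1 and Gad2 at least 4 times above Slc6a9 relative to their means, 13 clusters (5063 nuclei) had Slc6a9 that far above, and 3 (942 nuclei) lay between. Gad1, Gad2 and Slc6a9 defined the groups and their levels describe them only. Clusters with few amacrine marker UMIs (AC4, AC6, AC10 and AC20, 1220 to 1415 CPM over the 8 markers) were kept. Over the clusters Gad1 and Slc6a9 ran against each other (r = -0.91 over 35 clusters from the same libraries, a description).

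**Figure D4:**
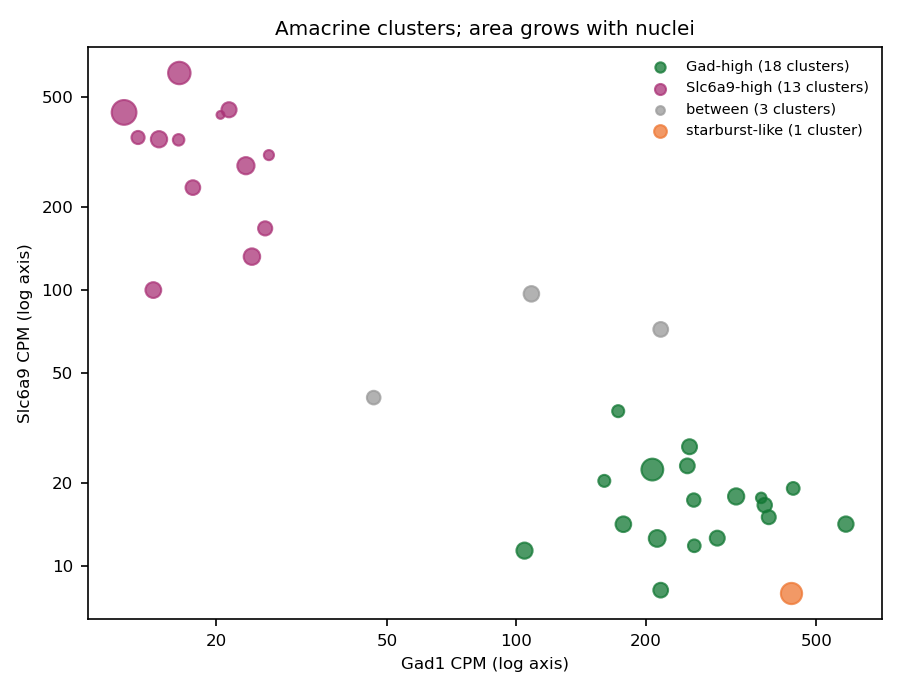
Gad1 CPM (horizontal log axis) against Slc6a9 CPM (vertical log axis) in 35 amacrine clusters pooled over 6 libraries, with point area rising with the number of nuclei and color giving the group. The 13 Slc6a9-high clusters and the 18 Gad-high clusters lie in opposite corners, since these genes defined the groups, and 3 clusters lie between.

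Starburst-like nuclei, the cholinergic amacrine cells of direction selectivity, differed from the Gad-high group in several receptor genes. Gabrd was at 245, 241 and 211 CPM with saline and 250.01, 244 and 256 CPM with IL-27 there and at 14.9 ± 2.44 CPM in the Gad-high group. Gabra4 had 336 ± 37.9 CPM against 19.5 ± 2.86 CPM, and Gabrb1 1375 ± 204 CPM against 362 ± 42.9 CPM. Gabra2 was also high at 907 ± 111 CPM, whereas Gabra3 (2.65 ± 1.79 CPM), Gabrg3 (10.8 ± 5.73 CPM), Glra2 (13.4 ± 6.22 CPM) and Abat (8.07 ± 1.9 CPM) were at or near their lowest among the clusters. Some other clusters held more Gabrb1 or Gabra2, as given below. Of the synthesis enzymes these nuclei held Gad1 at 429.9 ± 50.2 CPM and Gad2 at 4.74 ± 3.18 CPM, the lowest Gad2 of any amacrine cluster with a value in all libraries.

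The 2 larger groups differed in members that did not define them. Slc6a11 was at 293 ± 26.3 CPM in the Gad-high and 20.8 ± 3.2 CPM in the Slc6a9-high group. Gabrg3 went the other way, at 329 ± 23.2 CPM and 1655 ± 117 CPM, and so, more weakly, did Glra2, at 143 ± 6.68 CPM and 212 ± 8.65 CPM. Slc6a5 differed less, at 59.9 ± 5.31 CPM and 80.05 ± 9.62 CPM, with the highest clusters on both sides.

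The Slc6a5 clusters are an example of how the groups break up. AC8, a Gad-high cluster of 406 nuclei led by Olfm3 and Tshr, had the highest Slc6a5 of the clusters with a value in all libraries, at 349, 419 and 386 CPM with saline and 345, 413 and 415 CPM with IL-27, together with Gad1 at 323 ± 24.7 CPM, Slc6a11 at 641 ± 58.3 CPM and Slc6a9 at 18.3 ± 5.65 CPM. AC0, the largest Slc6a9-high cluster with 1053 nuclei led by Pde8b and Pcsk6, had Slc6a5 at 179 ± 17.6 CPM and Slc6a9 at 442 ± 27.6 CPM. GlyT2 and a GABA-synthesizing enzyme were thus found in the same cluster in all 6 libraries.

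Receptor genes varied over wide ranges among the clusters. Gabrg3 was at 2808, 3128 and 2983 CPM with saline and 2867, 3357 and 2907 CPM with IL-27 in AC0, where Gabra2 was at 9.46 ± 4.71 CPM. Gabra2 peaked in AC21, a Gad-high cluster led by Mlip and Etv1 (1990.4 ± 496 CPM), and in AC22, a Slc6a9-high cluster led by Slc17a8, the vesicular glutamate transporter VGLUT3 (1902 ± 228 CPM). AC22 also had Gphn at 4799.5, 4419 and 4315 CPM with saline and 3743, 4663 and 4587 CPM with IL-27, where the next cluster, AC21, had 1659 ± 197 CPM.

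Each glycine receptor alpha subunit was highest in a different cluster. Glra3 was at 2821, 2708 and 2954 CPM with saline and 2687, 3475 and 3247 CPM with IL-27 in AC31 (164 nuclei led by Rgs6 and Rbms3), which also held Gabrb2 at 2399 ± 219 CPM. Glra2 was highest in AC1 at 511 ± 48.8 CPM, and Glra1 in AC28 at 719 ± 87.5 CPM, where Glrb was highest as well, at 254 ± 33.3 CPM. Gabrb1 was highest in AC30 (2429 ± 389.7 CPM) and in AC16 (2145 ± 347 CPM), the cluster led by Vip. Over the 35 clusters Gabra4 and Gabrb1, neighbours on chromosome 5 whose RefSeq spans overlap, ran together (r = 0.86, a description).

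One amacrine cluster carried bipolar genes. AC12 (363 nuclei, led by Otx2os1 and Samsn1) held 2976 CPM over the 10 bipolar markers and 3504 CPM over the 8 amacrine markers, and it had Gabra5 at 511 ± 52.4 CPM and Gabrr2 at 210.1 ± 44.9 CPM, the highest of these clusters. Its nuclei count as amacrine in the sums above. Without it, Gabra5 in amacrine nuclei was at 13.7 ± 1.53 CPM in place of 30.6 CPM, and Gabrr2 at 8.39 ± 1.38 CPM in place of 14.4 CPM.

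IL-27 and saline were compared within each type with edgeR's quasi-likelihood test on the library sums, with Benjamini-Hochberg adjustment over all genes tested in the type. None of the members was called at an adjusted p below 0.05 in any of the 11 types. Of 286 member and type pairs, 184 had enough counts to be tested, from 4 members in astrocytes and in microglia and 8 in horizontal nuclei to all 26 in amacrine nuclei, and the smallest adjusted p was 0.445. Over all genes the share called was 0.00752% in rods, 0.00591% in amacrine nuclei, 0.0286% in Muller glia, 0.00712% in the Slc6a9-high amacrine group and 0% in the other types and groups. DESeq2 on the same sums called 0 of the members, and 0.0387% of all gene and type pairs (0.541% of genes in Muller glia). It gave 5 of 285 member pairs an unadjusted p below 0.05, against 0.951% of all pairs.

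Single pairs stood near the rate of all genes. An unadjusted p below 0.05 was found for 11 of the 184 pairs (5.98%), 6 higher and 5 lower with IL-27, against 4.13% of all gene and type pairs. The 3 IL-27 libraries lay wholly above or below the 3 saline libraries in 22 pairs (12%), 12 higher and 10 lower, against 9.37% of all pairs. An exact permutation test of 3 against 3 libraries cannot go below 0.1. The log2FC is the log2 fold change of IL-27 over saline, ± its SE where printed. In 162 of the 184 pairs an approximate 95% interval of the log2FC lay within 1 log2 unit in both directions. This interval took the SE times a normal quantile on each side. It is narrower than edgeR's quasi-likelihood test implies, so the count can be too high. For Gabrd in OFF cone bipolar nuclei it left out 0 (-1.56 to -0.05), where that test gave an unadjusted p of 0.0514.

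Medians of the members stayed near 0 in all types. The median log2FC of the members tested ran from -0.11 in rods and -0.10 in cones to 0.10 in OFF cone bipolar and 0.12 in horizontal nuclei (8 members), and that of all genes from -0.01 to 0.01. In Muller glia it was -0.09 and in amacrine nuclei 0.02. The log2FC of Gphn was above 0 in 11 of 11 types, from 0.03 to 0.15, and IL-27 replicate 10 was its highest library in rods, cones, amacrine, ON cone bipolar and OFF cone bipolar nuclei. These types come from the same libraries, and none of these differences passed the test.

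**Figure D5:**
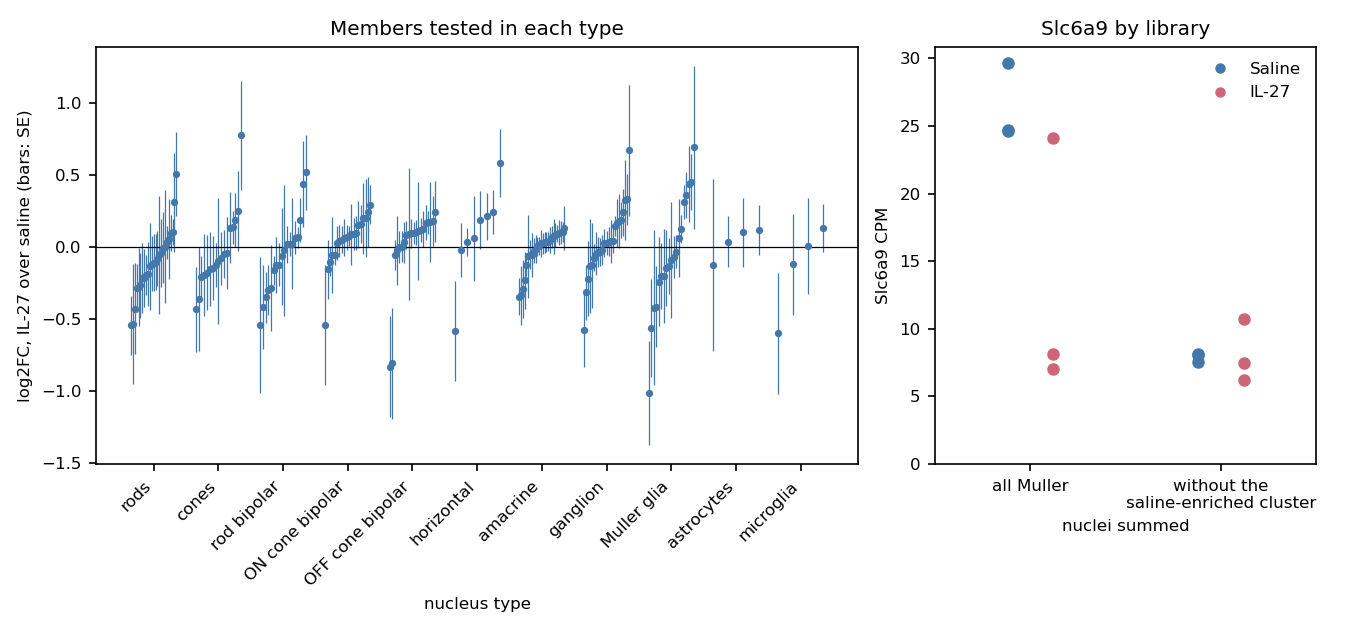
Left, log2FC of IL-27 over saline for each member tested (points, bars are 1 SE) by nucleus type, most of them within 0.5 of 0 and none called. Right, Slc6a9 CPM in each library over all Muller nuclei and without the saline-enriched cluster, where IL-27 replicates 4 and 5 are low on the left and all libraries lie at 6.25 to 10.8 CPM on the right.

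The synthesis gene Gad1 had values below saline in several types, none of which passed the test. Gad1 in rods was at 55.7, 43.5 and 67 CPM with saline and 37.4, 23.1 and 49.1 CPM with IL-27, a log2FC of -0.54 ± 0.20 (SE, unadjusted p = 0.0173, adjusted p = 0.9998), with IL-27 replicate 10 inside the saline range. In amacrine nuclei, where Gad1 is highest, the log2FC was -0.12 ± 0.08, with all IL-27 libraries just below the saline libraries. Gad1 in ganglion nuclei was at 11.3, 10.2 and 18.4 CPM with saline and 9.96, 7.25 and 8.81 CPM with IL-27, a log2FC of -0.58 ± 0.25 (adjusted p = 0.9997) from 249 UMIs. The log2FC of Gad1 was below 0 in 8 of 9 types tested, and in ganglion nuclei every Gad1 value lay below the lowest of microglia (21.9 to 39.7 CPM). The 8 amacrine markers summed to 678 to 725 CPM in rods of the saline libraries and to 616 to 694 CPM in those of the IL-27 libraries, and their part in the rod values was not tested.

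The glycine transporter Slc6a9 in Muller glia was the pair with the smallest adjusted p. It was at 24.7, 29.7 and 24.6 CPM with saline and 7.02, 8.18 and 24.1 CPM with IL-27, so that IL-27 replicates 4 and 5 were low and IL-27 replicate 10 lay just below the saline libraries. The log2FC was -1.01 ± 0.36 (unadjusted p = 0.0197, adjusted p = 0.445). Leaving out IL-27 replicate 10 gave -1.74 with an adjusted p of 8.93e-04, in a fit that then called 444 genes.

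Slc6a9 was higher in a cluster counted here as Muller nuclei than in the other Muller nuclei. This cluster, known by Fbln1, Frmpd4, Reln and Csmd3, was more frequent on average in saline libraries. The 9 Muller markers summed to 3608 to 4617 CPM in its libraries, 5919 to 7061 CPM over all Muller nuclei and 3752 to 5513 CPM in microglia. Whether the nuclei of the cluster are Muller glia was not tested. The cluster made up 20.2%, 21.9% and 12.1% of Muller nuclei with saline, whereas with IL-27 its share was 1.86%, 1.08% and 13.7%. In it, Slc6a9 was at 119.9, 123 and 175 CPM with saline and 64.2, 44.7 and 137 CPM with IL-27, where IL-27 replicate 5 gave 9 nuclei. The smallest value above 0 of any member in the cluster was 21.4 CPM in IL-27 replicate 4 and 44.7 CPM in IL-27 replicate 5. Slc6a9 thus rests on very few UMIs in these libraries, and a difference within the cluster was not tested. Slc6a9 in all other Muller nuclei was at 7.57, 8.09 and 8.17 CPM with saline and 6.25, 7.47 and 10.8 CPM with IL-27, and the log2FC over these was 0.02 (adjusted p = 0.997). Over all Muller nuclei the 8 amacrine markers summed to 914 to 1010 CPM in the saline and 812 to 999 CPM in the IL-27 libraries, and in the cluster to 1638 to 1697 CPM and 921 to 1337 CPM, with no marker at 0. Their part in Slc6a9 was not tested.

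In the saline libraries the same cluster held little of the GABA uptake gene that is typical of Muller glia. There Slc6a11 was at 19.8, 13.4 and 16.4 CPM in the cluster and at 336, 328 and 372 CPM in the other Muller nuclei. Glrb was at 17.1, 11 and 13.7 CPM in the cluster and at 166, 168 and 157 CPM in the others. Abat differed less, at 119, 108 and 104 CPM against 181, 159.9 and 205 CPM. In the IL-27 libraries the cluster had Slc6a11 at 85.6, 179 and 17.9 CPM and Glrb at 85.6, 134 and 35.7 CPM. Abat was at 128, 179 and 113 CPM there, with few nuclei in IL-27 replicates 4 and 5. The members took no part in the clustering, but their levels here are a description of a cluster.

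In all, 4 of 19 members tested in Muller glia had an unadjusted p below 0.05 (21.1%, against 8.98% of all genes in this type), and the other 3 had a log2FC above 0. Abat was at 171, 149 and 195 CPM with saline and 201, 212 and 217 CPM with IL-27, higher in all IL-27 libraries, with a log2FC of 0.31 ± 0.12 (adjusted p = 0.475). Without the saline-enriched cluster it was 0.24 ± 0.11 (adjusted p = 0.961). Gabrg3 had a log2FC of 0.45 ± 0.19 (adjusted p = 0.526) with overlapping groups, and Glrb 0.36 ± 0.16 (adjusted p = 0.554), with IL-27 replicate 5 the highest library at 224 CPM. Without the cluster these were 0.34 ± 0.20 and 0.17 ± 0.13. None of the 4 had an unadjusted p below 0.05 without the cluster, where 1 of 18 members did (Gad1, log2FC -0.53 ± 0.23), against 5.11% of all genes.

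Receptor genes in neurons gave small differences of both signs. Glra1 in OFF cone bipolar nuclei had a log2FC of 0.17 ± 0.08 (adjusted p = 0.999) and all IL-27 libraries (569 to 609.9 CPM) above all saline libraries (515 to 563 CPM). In amacrine nuclei Glra1 was at 26.4, 29.9 and 37.6 CPM with saline and 22.9, 25.1 and 25.5 CPM with IL-27, a log2FC of -0.34 ± 0.13 (adjusted p = 0.9999). Gabrg1 in horizontal nuclei was at 34.6, 39.7 and 27.3 CPM with saline and 46.5, 62.3 and 41.9 CPM with IL-27, a log2FC of 0.58 ± 0.23 (adjusted p = 0.968) from 212 UMIs with every IL-27 library above every saline library. Gabrb1 in ON cone bipolar nuclei was at a log2FC of 0.29 ± 0.14 (adjusted p = 0.999) with overlapping groups.

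The remaining pairs named by the size of their p were OFF cone bipolar genes at low counts. Gabra2, from 91 UMIs, had a log2FC of -0.83 ± 0.35, and Gabrd, from 61 UMIs, -0.81 ± 0.39 (adjusted p = 0.999 for both). In each, all 3 IL-27 libraries lay below the saline libraries. Gabra2 in these nuclei (7.59 CPM) was below its level in microglia (14.6 CPM).

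The amacrine groups gave 0 members called as well, by edgeR and by DESeq2. An unadjusted p below 0.05 was found for 3 of 14 members in starburst-like nuclei (all genes 3.44%), 1 of 26 in the Gad-high group (3.12%) and 1 of 25 in the Slc6a9-high group (3.2%). The smallest was Glra1 in the Gad-high group, at 35.5, 33.2 and 37.5 CPM with saline and 22.4, 24.2 and 28.3 CPM with IL-27, a log2FC of -0.49 ± 0.12 (unadjusted p = 9.73e-04, adjusted p = 0.9999), and it is named after its value was seen. The 3 genes in starburst-like nuclei were Glra2 (log2FC -1.14 ± 0.36, 78 UMIs), Gabrb2 (-1.13 ± 0.45) and Slc32a1 (0.45 ± 0.20), and in the Slc6a9-high group it was Gad1 (-0.70 ± 0.27), and none passed the adjusted threshold. The shares of the groups among amacrine nuclei overlapped between treatments, with Gad-high nuclei at 46.0% ± 1.28 in saline and 46.8% ± 0.41 in IL-27 libraries.

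A list of 36 further genes of inhibitory transmission gave 266 gene and type pairs, of which 0 were called by edgeR and 15 had an unadjusted p below 0.05 (all pairs 4.13%). The list holds anchoring proteins, GABA-B partners, other transporters and chloride carriers. In Muller glia 7 of 31 had such a p (all genes 8.98%), among them Kcnj3, a potassium channel opened by GABA-B receptors, at 78.4, 93.2 and 55.4 CPM in saline and 11.4, 8.44 and 28.8 CPM in IL-27 libraries (log2FC -2.23 ± 0.36, adjusted p = 0.0928). Plcl1, a protein that binds GABA-A receptors, had a log2FC of -0.60 ± 0.10 (adjusted p = 0.12). DESeq2 called both (adjusted p = 0.00643), and without the saline-enriched cluster their log2FC were -0.54 and -0.10.

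Other genes of that list were named by the same rule in 3 types. In Muller glia Insyn2a, a gephyrin partner, had a log2FC of 0.39 ± 0.12 and Aldh5a1, which takes GABA breakdown to succinate, 0.47 ± 0.17 (adjusted p = 0.352 and 0.463). In amacrine nuclei Kctd16 (0.10), Kctd12 (-0.34) and Gabarapl1 (-0.19) all had adjusted p = 0.9999. In horizontal nuclei Trak1 (0.41) and Nlgn2 (0.52) were at adjusted p = 0.968 and Slc12a2 (-0.14) and Kcnj3 (-0.19) at 0.983.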

How the data were processed

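Single-nucleus RNA was counted in 3 saline and 3 IL-27 libraries. The authors' deposited count matrices hold raw UMI counts per gene and barcode for 32285 genes. Per the file headers they came from Cell Ranger 8.0.1, while the submitters' processing notes name Cell Ranger 9.0.1 and Seurat 5.2.1. The genome build is not given in the sources used here. A different build or annotation would change which reads count for neighbouring genes.

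Barcodes with over 500 UMIs, at least 200 genes and under 5% mitochondrial UMIs were kept, and the barcodes with the highest Scrublet scores were removed in each library (3976 in all, for an expected 8% of doublets less those between like nuclei). Nuclei were clustered with scanpy 1.11.5 (2000 variable genes without the 26 members, 25 components, 20 neighbours, Leiden resolution 0.25, and 0.5 within bipolar and amacrine nuclei) and named from marker lists. Within a type, nuclei whose log2 count was more than 2 median absolute deviations away from the type's median were left out, as in the study's methods, and UMIs were summed per library. The sums were tested with edgeR 4.0.16 (quasi-likelihood test, TMM, filterByExpr with a minimum of 10, Benjamini-Hochberg over all genes of the type) under R 4.3.3, with DESeq2 1.42.0 as an alternative. Shares of nuclei with a UMI were taken after thinning to 1000 UMIs, with exact 95% intervals that cover counting error only.

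The members, the 36 related genes and the marker lists were chosen with earlier results of these data known, and the members are no independent sample. All 26 members are named in the map. For IL-27 against saline the genes called were to be named, and otherwise the 12 pairs with the smallest unadjusted p in the 11 types. For the related genes, those called and 2 per direction in amacrine, horizontal and Muller nuclei were named, except 1 that is not reported here. On simulated counts 200 genes were changed by 1.5 log2 units. The test recovered 190 in amacrine nuclei (9 false calls among 16911 genes) and 173 in Muller glia (11 false calls among 13983 genes). It recovered fewest in microglia (155, among 8091 genes) and astrocytes (158, among 3533 genes). The largest absolute log2FC of a member was 1.01 in Muller glia and 0.34 in amacrine nuclei, and recovery of changes of that size was not measured.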

Additional observations from a re-analysis of the deposited data

Results flagged for a closer look

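In 3 members the IL-27 libraries lay wholly on one side of the saline libraries in a type and wholly on the other side in another type, which is what singled them out. The share of all genes with such a pattern was not counted, and the groups did not overlap in 9.37% of all gene and type pairs. Whether the effects differ between the types was not tested, the types come from the same libraries, and none of the 6 values passed the test. Gabbr2, the G protein-coupling subunit of GABA-B receptors, had a log2FC of 0.11 in amacrine nuclei and -0.20 in Muller glia. Its Muller values came from 155 UMIs and lay at 5.57 to 7.59 CPM, below its mean of 11.1 CPM in microglia. Glra1 had a log2FC of 0.17 in OFF cone bipolar nuclei and -0.34 in amacrine nuclei. Abat had a log2FC of 0.31 in Muller glia and -0.30 in rod bipolar nuclei.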

How the results depend on the processing

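No paired analysis was possible because the groups share no replicate numbers. The number of members called was 0 in every type under each alternative run, with an exception in Muller glia, where leaving out a library gave 0 to 1. The exception was the fit without IL-27 replicate 10, which called Slc6a9 (log2FC -1.74). The log2FC of Slc6a9 in Muller glia was 0.0248 without the saline-enriched cluster, which turned its sign. For the named pairs, 245 of 247 alternatives kept direction and side of the threshold, and the other 2 are these. The alternatives were DESeq2 and its size factors, other filters on low counts, nuclei kept without doublet removal or removal of outlying nuclei, another clustering resolution, leaving out each library, amacrine sums without the bipolar-led cluster and Xist as a covariate (the last 2 chosen after seeing the data). Xist was at 2029 CPM in saline replicate 2 and 1999 CPM in IL-27 replicate 5, and at most 0.408 CPM in the other libraries. The sample labels used here give no sex. Depth limited the horizontal, astrocyte and microglial sums, where 8, 4 and 4 members had enough counts to be tested.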

Other observations

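The saline-enriched cluster, counted here as Muller nuclei, also held transporter genes of the related list, and Gldc. These genes are named outside the rule for related genes given above, and their levels describe the cluster only. Slc6a13, which encodes the GABA transporter GAT2, was at 635, 562 and 626 CPM in the cluster in the saline libraries and at 85.6, 179 and 774 CPM in the IL-27 libraries, where replicates 4 and 5 rest on 15 and 9 nuclei. Over all Muller nuclei Slc6a13 was at 102, 105 and 65.5 CPM in the saline libraries and at 1.17, 1.85 and 85.7 CPM in the IL-27 libraries. IL-27 replicate 10 lay inside the saline range, and the log2FC was -1.66 ± 0.94 (SE, adjusted p = 0.682 by edgeR's quasi-likelihood test).

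Slc6a6, which encodes the taurine transporter, was at 2545, 2533 and 2768 CPM in the cluster in the saline libraries and at 985, 983 and 2919 CPM in the IL-27 libraries. Over all Muller nuclei its log2FC was -1.21 ± 0.52 (adjusted p = 0.533). Slc6a12, which encodes the betaine and GABA transporter BGT1, had 134 UMIs in the cluster of 149 in all Muller nuclei, and its log2FC was -2.62 ± 0.81 (adjusted p = 0.366). Gldc, of the glycine cleavage system, was at 553, 577 and 536 CPM in the cluster and at 398, 447 and 421 CPM over all Muller nuclei, the cluster included, in the saline libraries.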
